A study of Mus musculus with 6 samples.

Results

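The smooth muscle contractile genes described here are 10 named genes, *Acta2*, *Actg2*, *Myh11*, *Tagln*, *Cnn1*, *Des*, *Myocd*, *Lmod1*, *Smtn* and *Synpo2*, each of which was found by its symbol at 1 of the 24402 loci measured. They were read in whole lungs at 12.5 *dpc* from wild-type embryos (control) and *Yap* mutant embryos, with 3 RNA-Seq libraries per genotype, all from strain C57BL/6. The mutants were Yap-flox/flox; Shh-Cre/+, so both copies of *Yap* were floxed and Cre came from 1 copy of the *Shh* locus, which is itself disrupted by the insertion. The controls are labelled wild type. *Shh* Cre acts in the lung epithelium and leaves *Yap* in the mesenchyme, where smooth muscle arises. The sources do not say whether a library held 1 lung or several. For each locus there was 1 value per genotype, which the authors had already summarised over the libraries, so no standard deviation, depth per library or test could be given, and every difference below is a difference between a pair of group values. Values are FPKM, fragments scaled to transcript length and library size, so that levels of different genes can be set side by side.

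Visceral smooth muscle contracts when myosin slides along actin filaments. Its cells carry their own actins and myosin heavy chain, proteins that sit on the thin filament (calponin, transgelin, leiomodin, smoothelin), the intermediate filament protein desmin, and the coactivator myocardin, which works with serum response factor (SRF) at DNA elements called CArG boxes. In the embryonic lung, smooth muscle forms from mesenchyme around the growing airways, and Hedgehog signal from the epithelium is known to promote it. Smooth muscle also lies in the wall of the larger vessels. Several of these genes, among them *Acta2*, *Tagln*, *Cnn1*, *Des* and *Myocd*, are active in the embryonic heart as well.

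Some facts of the whole data set bear on the values. *Yap1* itself had 76.1 FPKM in the controls against 65.6 in the mutants, a log2 ratio of -0.21, in RNA that includes the mesenchyme. Of 4 Y-linked genes, the highest control value was 0.0163 FPKM and the mutant values ran from 4.61 to 16.5 FPKM, so the embryos of the groups were not matched for sex. A list of 20 heart muscle markers was higher in the mutant samples, at a summed 154 FPKM in the controls against 1091 in the mutants, and its values are given again beside the genes they touch. Ratios are log2 of the mutant over the control value after 0.1 FPKM was added to each, over 12716 loci whose mean reached 1 FPKM. The median of these loci was -0.01, and the middle 50% lay between -0.11 and 0.11.

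Most of the smooth muscle genes were lower in *Yap* mutant lungs. Of the 10 genes, 9 had a lower value in the mutants and 1, *Des*, had a higher value. The 9 genes whose mean reached 1 FPKM included 5 that were at least 1.5-fold lower (*Acta2*, *Actg2*, *Myh11*, *Tagln* and *Myocd*) and 1 that was at least 1.5-fold higher (*Des*). Over all 12716 loci, 3.30% were lower and 4.44% were higher by that much. The same 5 genes were at least 2-fold lower, against 1.28% of all loci, and 8 of the 9 were at 80% of the control value or less, against 6.80%. *Lmod1*, with a mean of 0.965 FPKM, did not reach the filter, and its mutant value was also lower. The median log2 ratio was -1.06 over the 9 genes and also over all 10. In RNA from a whole organ, fewer smooth muscle cells and less of these transcripts in each cell cannot be told apart.

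**Figure D1:**
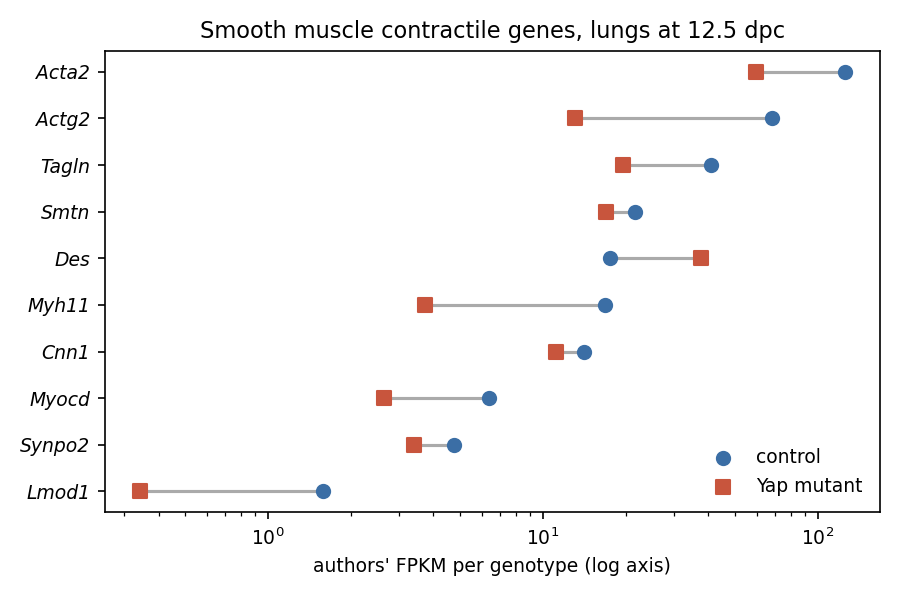
Level of each smooth muscle contractile gene in control lungs (circles) and *Yap* mutant lungs (squares) at 12.5 *dpc*, as the authors' FPKM per genotype on a log axis, with genes ordered by the control level. The mutant value lies to the left of the control value for 9 genes and to the right for *Des*, and the longest lines are those of *Actg2*, *Lmod1* and *Myh11*.

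The sequence just upstream of a RefSeq transcript start is shown for 4 members. *Acta2*, *Lmod1* and *Smtn* were shown because they held a motif of TEAD, the DNA-binding partner of YAP, and *Des* because it was higher. Promoter windows came from RefSeq (GRCm38.p6), which had an entry for 6 members: *Acta2*, *Cnn1*, *Des*, *Lmod1*, *Smtn* and *Synpo2*. No entry was used for *Actg2*, *Myh11*, *Tagln* and *Myocd*. Each run is the 250 bases before 1 RefSeq transcript start on the gene's strand, 5′ to 3′. Other starts were not searched. In the GENCODE annotation *Smtn* reaches to 3540612 and *Acta2* to 34255590. All of the *Smtn* window and most of the *Acta2* window therefore lie inside the annotated gene. Capitals mark the TEAD motif GGAATG on either strand and, in *Acta2*, matches to the CArG box with 1 inner base changed.
*Acta2*, chr19:34255374-34255623, minus strand: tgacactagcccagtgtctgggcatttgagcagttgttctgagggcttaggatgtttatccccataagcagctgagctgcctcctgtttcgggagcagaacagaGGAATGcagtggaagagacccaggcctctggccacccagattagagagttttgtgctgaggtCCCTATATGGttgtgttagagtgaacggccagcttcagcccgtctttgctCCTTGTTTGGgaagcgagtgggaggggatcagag
*Lmod1*, chr1:135324563-135324812, plus strand: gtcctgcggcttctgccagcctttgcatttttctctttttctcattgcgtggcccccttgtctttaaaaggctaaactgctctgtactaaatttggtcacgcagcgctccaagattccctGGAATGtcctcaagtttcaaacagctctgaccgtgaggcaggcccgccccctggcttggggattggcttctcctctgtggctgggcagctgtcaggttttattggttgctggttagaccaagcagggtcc
*Smtn*, chr11:3539293-3539542, minus strand: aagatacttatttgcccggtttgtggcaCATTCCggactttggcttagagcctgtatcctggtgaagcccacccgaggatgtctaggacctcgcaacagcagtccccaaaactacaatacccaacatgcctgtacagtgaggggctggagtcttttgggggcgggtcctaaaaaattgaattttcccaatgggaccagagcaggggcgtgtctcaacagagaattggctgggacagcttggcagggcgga
*Des*, chr1:75360042-75360291, plus strand: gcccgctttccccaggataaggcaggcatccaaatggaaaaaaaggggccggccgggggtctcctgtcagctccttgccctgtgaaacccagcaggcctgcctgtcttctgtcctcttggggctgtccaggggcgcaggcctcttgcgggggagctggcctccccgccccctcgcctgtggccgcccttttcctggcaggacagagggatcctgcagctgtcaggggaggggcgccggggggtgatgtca

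The TEAD motif stood in the windows of 3 of the 6 members, against 12.6% of 32851 windows of the same length over the genome. In *Acta2* its first base lay 146 bases before the start, in *Lmod1* 130 bases and in *Smtn* 222 bases. These 3 genes had log2 ratios of -1.06, -1.93 and -0.35, so the motif was present beside large and small differences alike. In these mutants *Yap* is left in the mesenchyme, where smooth muscle arises. A direct effect of *Yap* loss on these genes was not tested. The motif was absent from the windows of *Des*, which was higher, and of *Cnn1* and *Synpo2*, whose values were lower. With 6 windows, and none for *Actg2*, *Myh11*, *Tagln* and *Myocd*, a link between the motif and the direction of the difference was not tested. The exact CArG box (CC, 6 A or T bases, GG) was in 0 of the 6 windows and in 1.47% of all windows. With 1 of the 6 inner bases allowed to be G or C, a form searched after the exact one gave no match, *Acta2* held 2 matches, with first bases 84 and 34 bases before the start. A window with 1 or more such matches made up 8.59% of all windows, and 0.67% held 2 or more. The E-box CANNTG was in 5 of the 6 windows and in 66.2% of all. A match in such a short window is a description of the letters there and not evidence of binding.

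Among the filament proteins, the smooth muscle actins were the most abundant members in control lungs. *Acta2*, which encodes smooth muscle alpha-actin (chromosome 19, 34240336 to 34255373, GRCm38), had 125.2 FPKM in the controls against 59.9 in the mutants. This was 2.09-fold lower, a log2 ratio of -1.06, and 1.09% of all loci had as low or a lower ratio. *Actg2*, which encodes the gamma-actin of visceral smooth muscle (chromosome 6, 83512909 to 83536251), had 68.0 FPKM in the controls against 13.1 in the mutants. It was 5.20-fold lower, the largest fold difference of the 10 genes, with a log2 ratio of -2.37 that 0.204% of loci reached. The 2 actins therefore did not differ to the same extent between the groups. The level of *Actg2* was 54.3% of that of *Acta2* in control lungs and 21.8% in mutant lungs. Only exact matches between transcripts were looked up, so the sharing of reads between actins through near matches was not tested. In the *Actg2* transcript, 0 of the 1284 stretches of 50 bases occurred in a transcript of another gene. For *Acta2*, 7 of 1986 stretches did, shared with 6 genes that include the cytoplasmic actin gene *Actg1* and its pseudogene Actg-ps1 but neither *Actg2* nor *Actc1*.

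*Myh11* encodes the smooth muscle myosin heavy chain, the motor that is most restricted to mature smooth muscle (chromosome 16, 14194443 to 14291573). Its level was 16.8 FPKM in the controls against 3.73 in the mutants, 4.52-fold lower with a log2 ratio of -2.15, and 0.252% of loci had as low a ratio. *Lmod1*, which encodes the leiomodin that nucleates actin filaments in smooth muscle (chromosome 1, 135324813 to 135368065), was the least abundant member, at 1.59 FPKM in the controls against 0.342 in the mutants. The ratio of these values was 4.64-fold, close to that of *Myh11*, while its log2 ratio after the added 0.1 FPKM was -1.93. Together with *Actg2*, these were the members with the largest fold differences, and their control levels spanned from 1.59 to 68.0 FPKM. As mutant minus control value, the difference of *Lmod1* was the smallest of all members, at -1.25 FPKM. Its mean did not reach the filter.

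The thin filament proteins did not move alike. *Tagln*, which encodes transgelin (SM22), lies on chromosome 9 from 45929619 to 45936058 in the GENCODE annotation. It had 40.9 FPKM in the controls against 19.6 in the mutants, 2.09-fold lower with a log2 ratio of -1.06, as in *Acta2*. The ends of its measured locus, 45863691 to 45936058, are those of a wider block that the table also lists for 2 other loci. On the opposite strand of *Tagln*, the annotated antisense gene Gm48529 covers 62.4% of its exonic bases and *Pcsk7* covers 5.43%, and *Pcsk7* had 7.20 and 8.17 FPKM. The libraries were stranded, but the strand setting of the counting is not given in the sources used here, so the value of *Tagln* is less certain than that of *Acta2*.

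*Cnn1*, which encodes calponin 1 (chromosome 9, 22099216 to 22109630), had 14.1 FPKM in the controls against 11.2 in the mutants, a log2 ratio of -0.33. This value did not reach 1.5-fold, and 6.68% of loci had as low a ratio. The block that gives *Cnn1* its locus ends is shared with 12 other loci. *Smtn*, which encodes smoothelin, a protein of contractile smooth muscle (chromosome 11, 3517522 to 3539292), had 21.7 and 17.0 FPKM, a log2 ratio of -0.35. An RNA annotated on its opposite strand, Gm11946, covers 16.3% of the exonic bases of *Smtn*. *Synpo2*, which encodes the actin-bundling protein synaptopodin 2 or myopodin (chromosome 3, 123076519 to 123236149), had 4.76 and 3.40 FPKM, a log2 ratio of -0.47 that 4.37% of loci reached. None (0) of these 3 genes was 1.5-fold lower, and all 3 were at 80% of the control value or less.

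*Des* stood apart from the other members. It encodes desmin, the intermediate filament protein of smooth, cardiac and skeletal muscle (chromosome 1, 75360344 to 75367715), and had 17.6 FPKM in the controls against 37.7 in the mutants. It was 2.15-fold higher, with a log2 ratio of 1.10, and 1.88% of loci had as high a ratio. The heart muscle markers were higher in the same samples. All 16 of the 20 markers whose mean reached 1 FPKM were at least 1.5-fold higher, against 4.44% of all loci. Their median log2 ratio was 3.14, with a range from 0.93 to 6.41, and none of the 20 was at 0 in either group. Of the most abundant, the atrial myosin light chain gene *Myl7* had 39.3 and 305.9 FPKM, *Myl4* had 21.3 and 210.3 FPKM, and the cardiac actin gene *Actc1* had 38.0 and 96.1 FPKM. By contrast, 12 skeletal muscle markers summed to 12.6 FPKM in the controls against 11.3 in the mutants, and 8 of them in control and 9 in mutant lungs were under 1 FPKM. The part of heart muscle in the value of *Des*, and in those of *Acta2*, *Tagln*, *Cnn1* and *Myocd*, was not tested. Without *Des*, the members summed to 299.4 FPKM in the controls against 130.8 in the mutants.

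*Myocd*, which encodes the coactivator myocardin (chromosome 11, 65173607 to 65270134), had 6.39 FPKM in the controls against 2.63 in the mutants. It was 2.43-fold lower, a log2 ratio of -1.25 that 0.771% of loci reached. *Srf*, its DNA-binding partner, had 35.1 and 33.8 FPKM, a log2 ratio of -0.06. The related coactivators *Mkl1* and *Mkl2* had log2 ratios of -0.11 and 0.43, and neither reached 1.5-fold. *Myocd* was thus the 1 gene of this group of SRF and its coactivators that was at least 1.5-fold lower.

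The order of the members by level differed between the groups. In control lungs it ran *Acta2*, *Actg2*, *Tagln*, *Smtn*, *Des*, *Myh11*, *Cnn1*, *Myocd*, *Synpo2* and *Lmod1*. In *Yap* mutant lungs it ran *Acta2*, *Des*, *Tagln*, *Smtn*, *Actg2*, *Cnn1*, *Myh11*, *Synpo2*, *Myocd* and *Lmod1*. *Actg2* thus moved from rank 2 to rank 5 and *Des* from rank 5 to rank 2. Without a spread between libraries, it is not known which neighbours in these orders differ. Of the summed FPKM of the members, which was 316.9 in control and 168.5 in mutant lungs, *Actg2* made up 21.5% and 7.76%, *Myh11* 5.31% and 2.21%, and *Des* 5.54% and 22.4%.

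**Figure D2:**
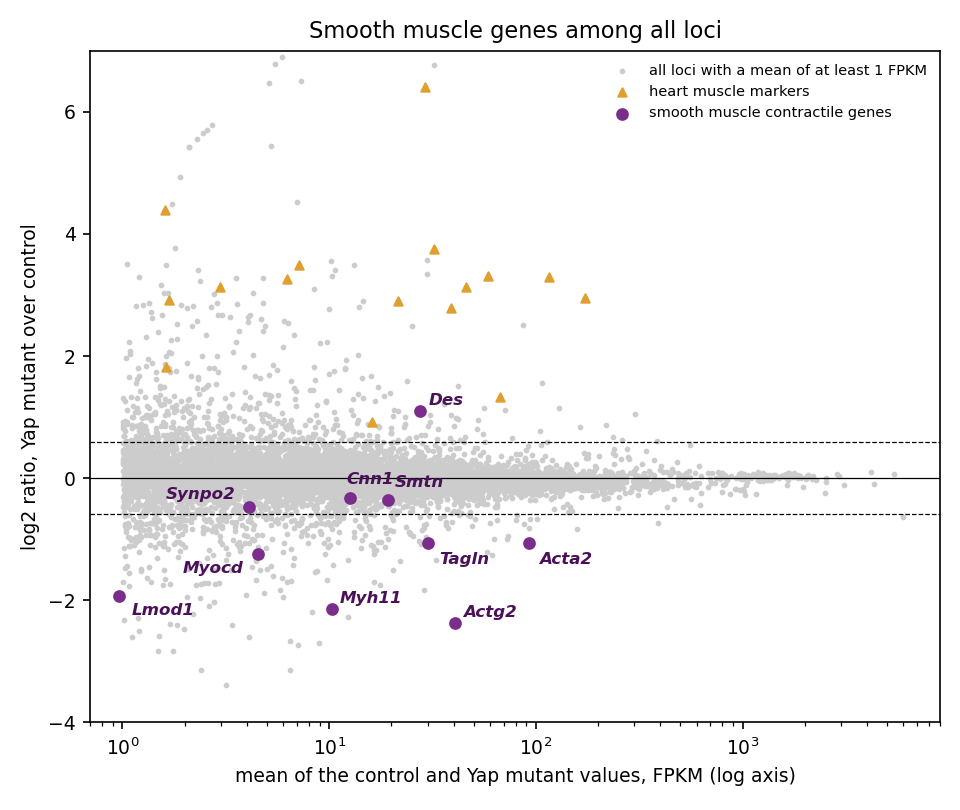
Log2 ratio of *Yap* mutant over control lungs against the mean level (log axis) for all loci whose mean reached 1 FPKM (grey), the 10 smooth muscle contractile genes (purple circles, *Lmod1* included although its mean is 0.965 FPKM) and the heart muscle markers (orange triangles), with dashed lines at 1.5-fold and 12 loci beyond the vertical axis not drawn. *Actg2*, *Myh11*, *Tagln* and *Acta2* lie below the lower dashed line, *Cnn1*, *Smtn* and *Synpo2* lie between the dashed lines, and *Des* lies above the upper line.

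Each member has relatives that work in non-muscle cells or in striated muscle. Most of these differed less than the smooth muscle forms or in the other direction. The cytoplasmic actins *Actb* and *Actg1*, the most abundant of all, both had log2 ratios of -0.03, beside -1.06 for *Acta2* and -2.37 for *Actg2*. Among the striated actins, *Actc1* had a log2 ratio of 1.34 and *Acta1* one of 0.47. The non-muscle myosin heavy chain genes *Myh9* and *Myh10* had 41.4 and 88.3 FPKM in control lungs and log2 ratios of -0.17 and -0.09, beside -2.15 for *Myh11*. *Myh14*, the third non-muscle gene, was low, at 1.87 and 0.589 FPKM, with a log2 ratio of -1.52.

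*Tagln2* and *Tagln3*, relatives of transgelin, had log2 ratios of -0.34 and -0.55, and the calponin genes *Cnn2* and *Cnn3* had ratios of -0.27 and -0.13, near that of *Cnn1*. *Vim*, which encodes the intermediate filament protein vimentin of mesenchymal cells, had 324.5 and 338.0 FPKM, a log2 ratio of 0.06, beside 1.10 for *Des*. The heart and skeletal muscle forms of leiomodin and its relatives went the other way from *Lmod1*. *Lmod2* had 0.0865 FPKM in the controls against 2.01 in the mutants, and the tropomodulin gene *Tmod1* had 0.476 and 3.20 FPKM. In the synaptopodin family, *Synpo* had a log2 ratio of -0.01 and the striated muscle form *Synpo2l* one of 2.41, beside -0.47 for *Synpo2*. The smoothelin-like gene *Smtnl2* had a log2 ratio of -0.13. Of 19 relatives whose mean reached 1 FPKM, 1 (*Myh14*) was at least 1.5-fold lower and 4 (*Actc1*, *Lmod2*, *Tmod1* and *Synpo2l*) were at least 1.5-fold higher, with a median of -0.03. Of these 4, *Actc1*, *Lmod2* and *Synpo2l* are striated muscle genes, and *Tmod1* is used in striated muscle and red blood cells. Over all loci, 3.30% were lower and 4.44% were higher by at least 1.5-fold.

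**Figure D3:**
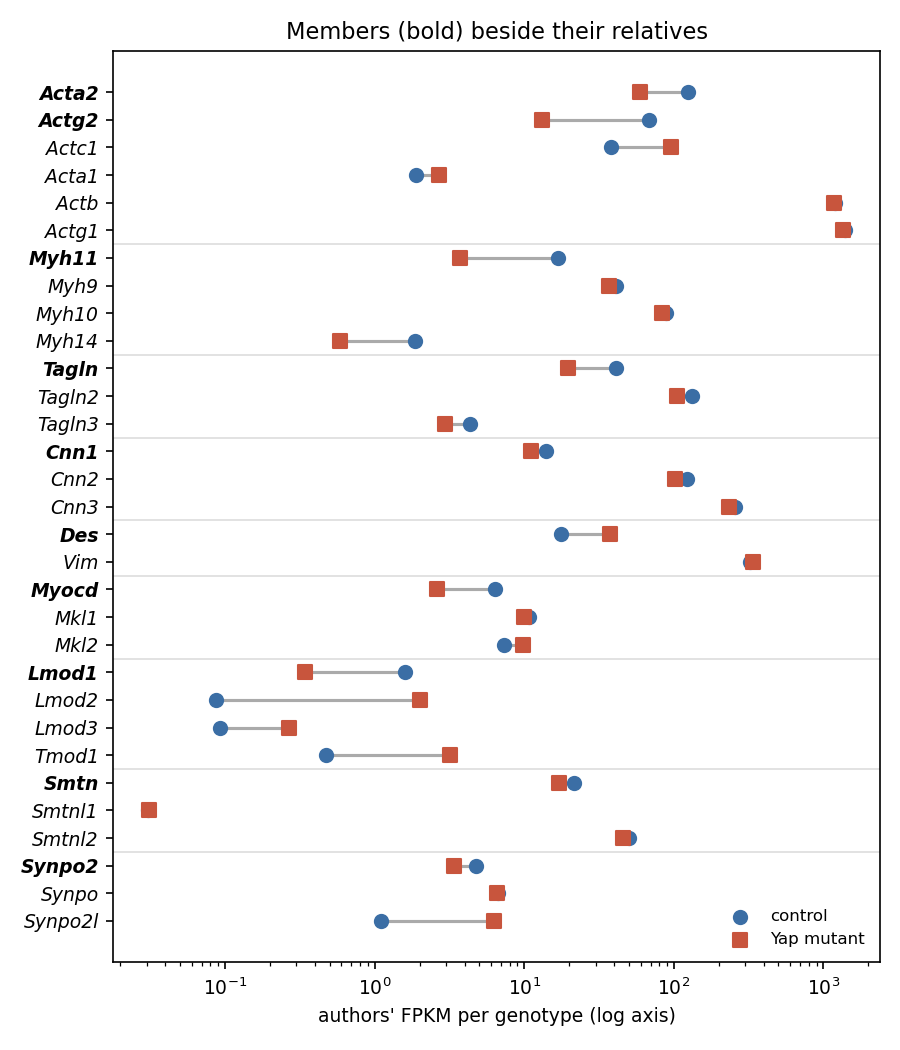
Levels of each member (bold) and of its relatives in control lungs (circles) and *Yap* mutant lungs (squares), as the authors' FPKM on a log axis, with gene families parted by lines. In the actin, myosin and desmin families the abundant non-muscle genes (*Actb*, *Actg1*, *Myh9*, *Myh10*, *Vim*) have nearly overlapping points, while the smooth muscle members are drawn apart.

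A wider list of 26 genes that build or attach the contractile apparatus in smooth muscle, many of which are also used by other cells, did not show differences of this size. Of 25 genes whose mean reached 1 FPKM, 16 had a negative and 9 a positive log2 ratio, and the median was -0.14. In each direction 1 gene passed 1.5-fold, against 3.30% of all loci that were lower and 4.44% that were higher. The lower gene was *Ppp1r14a*, which encodes CPI-17, an inhibitor of myosin phosphatase in smooth muscle, at 36.8 and 21.8 FPKM (log2 ratio -0.75). The higher gene was *Hspb6*, a small heat shock protein gene of muscle, at 4.26 and 6.50 FPKM (log2 ratio 0.60). Of the 5 most abundant genes, the light chain gene *Myl6*, the filamin gene *Flna* and the caldesmon gene *Cald1* had log2 ratios of -0.35, -0.14 and -0.32. The tropomyosin gene *Tpm1* and the light chain gene *Myl9* had ratios of 0.42 and 0.37. Heart muscle also expresses *Tpm1* and *Hspb6*.

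Of 16 transcriptional regulators of the smooth muscle programme other than *Myocd*, 1 was at least 1.5-fold lower and 2 were at least 1.5-fold higher, with a median of 0.06. The shares of all loci were 3.30% lower and 4.44% higher. *Foxf1*, a Hedgehog-responsive transcription factor gene of lung mesenchyme, had 83.5 FPKM in the controls against 41.6 in the mutants, 2.01-fold lower. *Gata6*, which acts in lung epithelium, smooth muscle and heart, had 35.0 and 56.0 FPKM (log2 ratio 0.67). *Tbx18*, a T-box transcription factor gene, had 2.65 and 6.36 FPKM (log2 ratio 1.23). Which cells gave the higher *Tbx18* value was not tested. *Tcf21*, a transcription factor gene of lung mesenchyme, had 57.4 and 39.2 FPKM at its more abundant locus, a log2 ratio of -0.55. The locus that holds *Elk1* together with *Cfp* and *Uxt* had a ratio of -0.04.

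Among 26 signals and receptors known to act on airway smooth muscle, 8 were at least 1.5-fold lower and 1 was at least 1.5-fold higher. The shares of all loci were 3.30% lower and 4.44% higher. *Shh*, the ligand made by the epithelium, had 15.6 FPKM in the controls against 2.31 in the mutants, a log2 ratio of -2.71. In the mutants 1 copy of *Shh* is disrupted by Cre, and the share of this allele in the difference was not tested. From qPCR of lungs of this genotype, the paper holds that the allele contributed to low *Shh*. It regards the allele as unlikely to be the only reason. The receptor *Ptch1* and the antagonist *Hhip*, which are themselves induced by Hedgehog signal, had log2 ratios of -1.82 and -2.67, and the effector *Gli1* had -1.02. *Smo*, the signal transducer, had 80.3 and 72.8 FPKM (log2 ratio -0.14). Also lower were the mesenchymal ligands *Wnt2* and *Wnt5a* and the ligand *Tgfb2*, with log2 ratios of -0.77, -0.95 and -0.91. *Fgf10*, a growth factor gene of distal mesenchyme and of smooth muscle progenitors, had 10.4 and 26.6 FPKM and was the 1 higher gene (log2 ratio 1.34). The epithelial ligand *Wnt7b* (0.23), the receptors *Bmpr1a* (-0.05) and *Pdgfra* (0.02) and the endothelin receptor *Ednra* (-0.47) did not reach 1.5-fold in their log2 ratios. The median of the 26 genes was -0.13.

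Markers of the cells around smooth muscle were set beside these values. For the counts below, 3.30% of all loci were lower and 4.44% were higher by at least 1.5-fold. Of 8 pericyte markers whose mean reached 1 FPKM, 1 (*Rgs5*) was lower and 3 (*Abcc9*, *Ndufa4l2* and *Anpep*) were higher by at least 1.5-fold. The median log2 ratio of the 8 markers was 0.21. Which cells gave the higher values of *Abcc9*, *Ndufa4l2* and *Anpep* was not tested. The pericyte markers *Pdgfrb* and *Notch3* had ratios of 0.19 and -0.03, and *Rgs5* had 13.9 and 8.46 FPKM, a ratio of -0.70. The 12 lung mesenchyme genes summed to 1398 and 1394 FPKM, with a median of 0.04, and 5 had negative and 7 positive ratios. The sums were mostly those of the abundant *Col3a1*, *Vim* and *Col1a1*, at 376.4, 324.5 and 288.1 FPKM in the controls. These had ratios of -0.02, 0.06 and 0.11. In the same list 3 genes (*Foxf1*, *Wnt2* and *Fendrr*) were at least 1.5-fold lower and 1 (*Fn1*) was higher. The 9 endothelial genes had a median of 0.14, with *Cdh5*, *Pecam1* and *Tie1* at 0.14, 0.19 and 0.25, and none (0) of them passed 1.5-fold in either direction. The 14 lung epithelial genes had a median of -0.60, with 8 lower and 2 higher by at least 1.5-fold, and of the most abundant *Cldn6* and *Epcam* had ratios of -0.60 and -0.43 and *Id2* one of 0.84. The median of the smooth muscle members, -1.06, was lower than that of each of these lists.

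**Figure D4:**
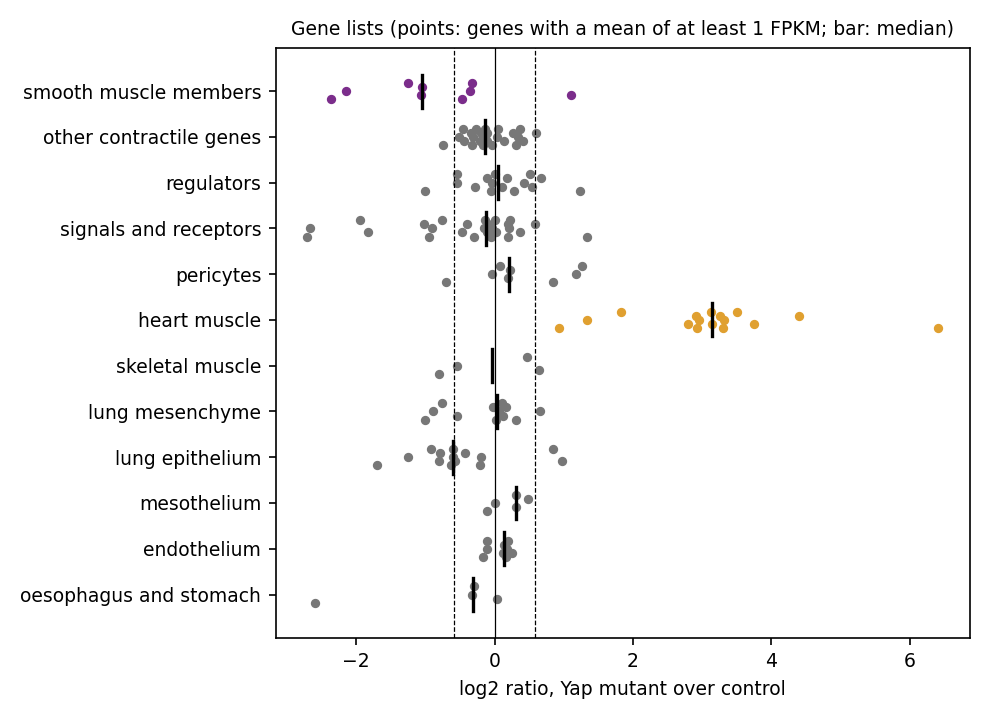
Log2 ratio of *Yap* mutant over control lungs for each gene of the lists whose mean reached 1 FPKM (points), with the median of each list as a bar and dashed lines at 1.5-fold. The members (purple) have the lowest median, -1.06, with *Des* on the right, and heart muscle markers (orange) have the highest, 3.14.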

How the data were processed

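RNA-Seq libraries from 6 samples of whole lung at 12.5 *dpc* were used, 3 per genotype. Per the methods, RNA was converted into strand-specific paired-end libraries, sequenced on HiSeq instruments and analysed on the Maverix platform. The submitters' processing notes name TopHat, Cuffdiff and mm10, the build of GRCm38, without versions.

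The authors deposited 1 FPKM value per genotype for 24402 loci, and a second table of 2395 loci they list as changed. The unit was read from the Cuffdiff layout, since no header names it. Both tables also hold the authors' fold changes and p-values, which were not used. No column belonged to other samples. Depth per library is therefore unknown, no test could be made, and 1 value per group limits the precision.

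Deposited locus starts count from 0, so 1 was added. Log2 ratios were computed from the FPKM values with a pseudocount of 0.1, over 12716 loci whose mean reached 1 FPKM, so that the ratio of a low gene is understated. A difference of at least 1.5-fold was counted. Where a symbol had several loci, the one with the higher mean was used. The members, the lists and the alternatives were chosen with earlier results of these data known. Named genes were the 10 members, list genes past 1.5-fold (1 of which is not reported here), the 5 most abundant genes of the contractile, regulator and signal lists, all relatives past the filter, and the 3 most abundant genes of each marker list. The genes named in other places were chosen after their values were seen.

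Positions are those of the deposited loci, except for *Tagln* and *Cnn1*, whose positions, like all transcripts, came from GENCODE M21, with promoter windows from RefSeq, all on GRCm38. Motifs were searched on both strands of 250 bases, and stretches of 50 bases of the longest coding transcript of each member were looked up in all other transcripts. Protein identities were not analysed here. Counting and motif search were tested on simulated data. Computation used Python 3.11.15 with numpy 2.4.6, pandas 2.3.3 and matplotlib 3.10.9.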

Additional observations from a re-analysis of the deposited data

How the results depend on the processing

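The counts of members at least 1.5-fold lower (5 of 9) and higher (1 of 9), and the median log2 ratio (-1.06), were recomputed with no pseudocount, with 1 FPKM added, with no filter on low values, with a mean of at least 5 FPKM, relative to the median of all loci kept, relative to the median of the mesenchyme list, and with the values of the table of changed loci. Under these the lower count ran from 4 (of 7 members used) to 6 (of 10), the higher count was 1 and the median ran from -1.10 to -1.02. With a limit of 80% of the control value, 8 members were lower, since *Cnn1*, *Smtn* and *Synpo2* then count, and at 2-fold 5 were. Added after the values were seen were the counts without *Des*, which left 0 higher, and without *Tagln* and *Cnn1*, whose locus ends are shared, which left 4 lower. A median was taken as unmoved within 0.1. The table of changed loci holds 2395 of the 24402 loci. *Cnn1* is not in it, and the other 9 members have the same values there within 1%. That setting was therefore no independent check. No paired analysis was possible because the tables hold 1 value per genotype. Leaving out a library was not possible for the same reason. Depth is unknown, so the sampling error of low values such as that of *Lmod1*, at 0.342 FPKM in mutant lungs, cannot be given.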

Other observations

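A list of 6 genes of oesophagus and stomach mesenchyme, made to look for tissue next to the lung, had 4 genes whose mean reached 1 FPKM. Of these 4 genes, 1 was at least 1.5-fold lower and 0 were higher, against 3.30% and 4.44% of all loci. The lower gene was *Foxl1*, a forkhead gene of gut mesenchyme that responds to Hedgehog signal. It had 7.14 FPKM in the controls against 1.09 in the mutants, a log2 ratio of -2.60. *Foxf2*, a neighbour of *Foxf1* in function, had 23.1 and 18.8 FPKM (log2 ratio -0.30), and *Nkx6-1* had 2.88 and 2.94 FPKM. The stomach regulator *Barx1* had 2.31 and 1.83 FPKM, and *Nkx2-3* and *Nkx3-2* were at most 0.0276 FPKM in either group. Whether the samples held such tissue was not tested.

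The 5 mesothelial genes whose mean reached 1 FPKM had a median log2 ratio of 0.31, with *Aldh1a2*, *Upk3b* and *Wt1* at 0.01, 0.31 and 0.31, and none (0) passed 1.5-fold. Skeletal muscle was represented by low values, the highest of which were *Mylpf* at 4.25 and 2.89 FPKM and *Acta1* at 1.90 and 2.68 FPKM.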
